A study of Homo sapiens with 4 samples.

Results

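The kallikrein-related peptidase genes KLK5 to KLK14 lie next to each other on chromosome 19 (GRCh37, chr19:51446559-51587502, 140.9 kb), and all 10 are transcribed from the minus strand. They were taken by name, with 5 kb added to each side of every gene, and this interval holds 141 regions of 1000 bp. In 3 deposited tables of differentially methylated regions, 17 of these 141 regions were listed, of 72455 regions listed in at least 1 table across the genome. Of the regions that the method can read, as defined below, at least 1 table listed 29.6% here and 17.4% over the genome. A listed region fell within 5 kb of 9 of the 10 genes, and KLK7 was the gene without one. Neighbouring genes share some of these regions. The share of all genes with a listed region within 5 kb was not computed, so the count of 9 describes positions only.

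Kallikreins are secreted serine proteases that are made as inactive precursors and switched on by removal of a short propeptide, often by another kallikrein. In the skin they cut the protein links between surface cells, and there inhibitors of the SPINK and serpin families hold them in check. Many of these genes respond to steroid hormones, several are studied as markers of epithelial ovarian cancer, and methylation of CpG sites near the start of a gene often goes with low transcription.

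DNA methylation was measured by reduced representation bisulfite sequencing (RRBS) in SKOV3, an established human ovarian cancer line of mesenchymal appearance, in 4 libraries, 1 for each stable clone. The shC-S clone carried a control shRNA and was of mesenchymal (M) phenotype, and the sh-LY75-S clone carried an shRNA against the antigen receptor LY75 and was of epithelial (E) phenotype. The LY75-KO-S clone (E) had lost LY75 by CRISPR editing, and the LY75-R-S clone (M) was made from the sh-LY75-S cells by adding an LY75 cDNA that the shRNA does not recognise. The question put to these clones was which methylation differences go with the change between M and E cells when LY75 is removed or put back. The tables compared shC-S with sh-LY75-S (called the knockdown comparison below), LY75-R-S with LY75-KO-S (the knockout comparison), and both M clones with both E clones (the mix), so that the mix uses all the libraries of the other tables. The first comparison differs by an shRNA, whereas LY75-R-S and LY75-KO-S differ in how LY75 was removed as well as in whether it was present, and these cannot be told apart. Because each clone gave 1 library, no replicate error exists, and differences between clones cannot be told apart from differences due to LY75.

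What is reported here is the position of the listed regions. The sizes and signs of the differences in the tables are the study's own comparisons and are not used here, so it is not said in which clone a region was more methylated. A region that was not listed may have been covered and below the thresholds, or not covered at all, and the tables do not tell these apart. RRBS reads begin at cuts of MspI, which cuts at CCGG, so a region was called readable when a CpG lay within 50 bp of an end of an MspI fragment of 40 to 220 bp in the reference. By this measure 54 of the 141 regions were readable, and 16 of the 17 listed regions were among them. Across the genome 93.4% of the regions listed in the knockdown comparison, 90.4% of those in the knockout comparison and 94.6% of those in the mix were readable by the same measure.

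The 4 MspI fragments that follow show what the method reads in listed regions at these genes. They were picked after the tables had been seen, from listed regions at start sites or in coding exons, and are given 5′ to 3′ on the plus strand of GRCh37, with the CpG sites in capitals. The first lies 58 bp upstream of the start site of KLK5, the next pair lies in an intron of KLK10 and across the end of its coding exon 2, and the last lies in coding exon 4 of KLK14.
KLK5 upstream, chr19:51456352-51456437: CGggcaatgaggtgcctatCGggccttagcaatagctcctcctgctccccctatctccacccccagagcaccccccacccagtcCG
KLK10 intron, chr19:51522171-51522265: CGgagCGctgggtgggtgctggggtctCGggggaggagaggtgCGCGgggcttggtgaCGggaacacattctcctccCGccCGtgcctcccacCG
KLK10 exon, chr19:51522264-51522344: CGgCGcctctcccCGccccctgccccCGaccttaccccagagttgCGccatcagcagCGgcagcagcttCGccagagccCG
KLK14 exon, chr19:51582754-51582856: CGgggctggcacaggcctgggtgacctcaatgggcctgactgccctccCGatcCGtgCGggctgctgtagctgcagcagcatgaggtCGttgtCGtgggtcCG

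The KLK5 fragment holds 3 CpGs in 86 bp, whereas the KLK10 fragments hold 9 in 95 bp and 8 in 81 bp, 4 of the 8 in the exon and 4 in the intron. The KLK14 fragment holds 7 CpGs in 103 bp. Each end of a fragment gives a read of up to 50 bases, and a read can be placed only where its sequence, with C read as T after bisulfite conversion, has a single match in the converted genome.

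Most of the listing in the cluster came from the knockdown comparison of shC-S with sh-LY75-S. Of the 54 readable regions, 15 (27.8%) were listed there (95% Wilson interval 17.6 to 40.9), and the share over all 383357 readable regions of the autosomes and X was 12.5%. In the knockout comparison, 4 of 54 (7.41%, 2.92 to 17.6) were listed, with 6.67% over the genome. The mix also listed 4 of 54 (7.41%, 2.92 to 17.6), with 5.18% over the genome. At least 1 table listed 16 of 54 (29.6%, 19.1 to 42.8), and over the genome 17.4% of readable regions. These intervals cover counting error only and take neighbouring regions as independent, which they are not, and no test between the shares was made.

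**Figure D1:**
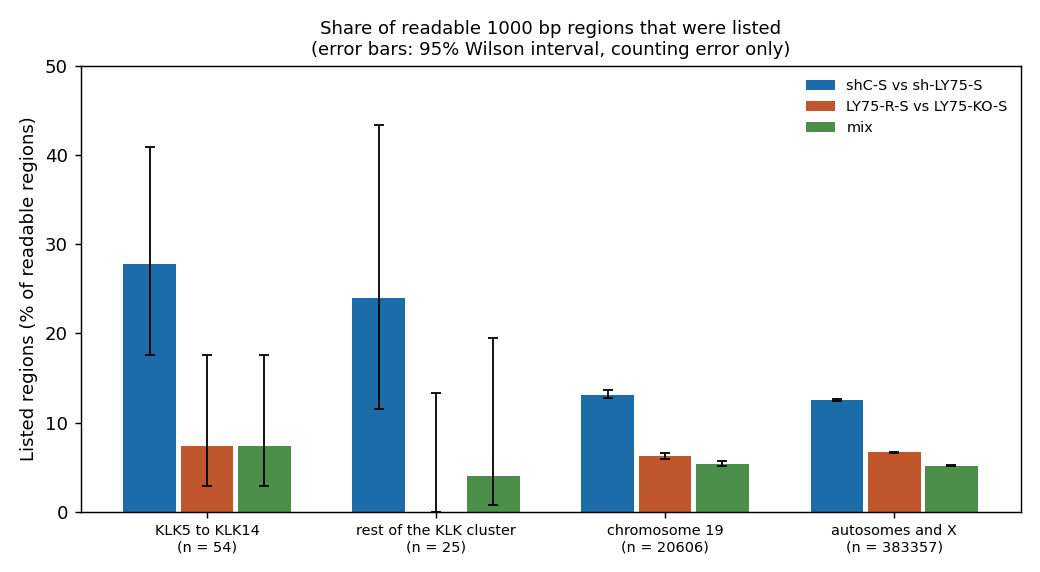
Share of readable 1000 bp regions listed (%, vertical axis) in each of the 3 tables, for KLK5 to KLK14, the rest of the kallikrein cluster, chromosome 19 and the autosomes with X. Bars are shares (blue for the knockdown comparison, orange for the knockout comparison and green for the mix) and error bars 95% Wilson intervals; KLK5 to KLK14 stand at 27.8% in the knockdown comparison, where the genome stands at 12.5%, and at 7.41% in each of the other tables.

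The whole of chromosome 19 was close to the genome, with 13.1% of its 20606 readable regions listed in the knockdown comparison, 6.28% in the knockout comparison and 5.38% in the mix. The rest of the kallikrein cluster (KLK1, KLK15, KLK3, KLK2, KLKP1 and KLK4, chr19:51322402-51414651), which holds the prostate-specific antigen gene KLK3, had 6 of 25 readable regions listed in the knockdown comparison (24%, 11.5 to 43.4). There 0 of 25 were listed in the knockout comparison, which allows a share of up to 13.3%, and 1 of 25 in the mix. With regions that were not readable by the digest included, the rest of the cluster had 8 listed regions in the knockdown comparison, 1 in the knockout comparison and 2 in the mix. The region in the knockout comparison (chr19:51360001-51361000, in KLK3, with 0 readable CpGs) was also listed in the knockdown comparison. The intervals of KLK5 to KLK14 and of the neighbouring genes overlap in every table.

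Counting also the region that was not readable by the digest, the tables listed 16, 4 and 5 regions of KLK5 to KLK14 in the order above. Of the 17 regions, 10 were listed only in the knockdown comparison, 1 only in the knockout comparison and 0 only in the mix. Genome-wide counts of regions listed by 1 table alone are not given here, so these counts have no background. The mix shares its libraries with the other tables, and its 5 regions were all among the 16, of which they are 31.2%. Over the genome, 81.2% of the 20986 regions of the mix were also in the knockdown comparison, which is 33.3% of the regions listed there. The knockdown and knockout comparisons (the single comparisons) share no library, although LY75-R-S was made from the sh-LY75-S cells. They had 3 regions in common, which is 18.8% of the 16 and 75% of the 4. Over the genome 8345 regions were common, 16.3% of 51243 and 29.5% of 28282. Among readable regions, both single comparisons listed 3 of 54 in the cluster (5.56%, 1.91 to 15.1) and 2.03% over the genome.

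**Figure D2:**
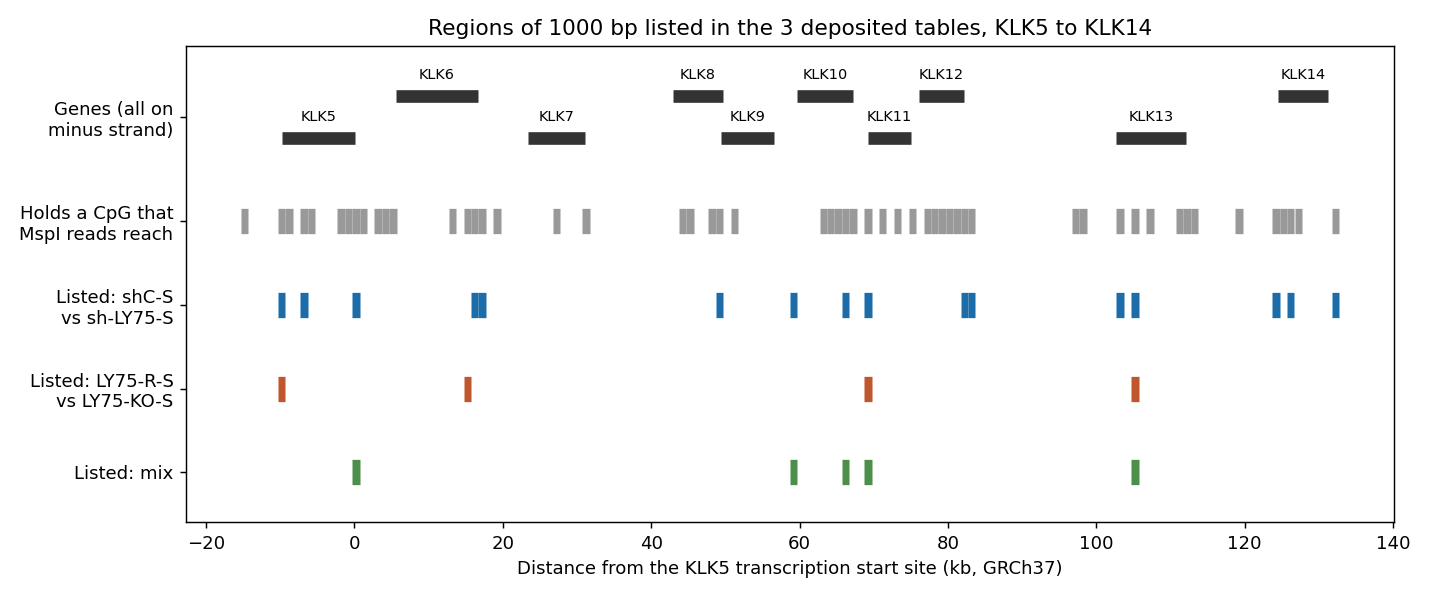
Map of KLK5 to KLK14, with the distance from the KLK5 start site in kb on the horizontal axis, genes as dark bars, readable 1000 bp regions in grey and the listed regions of each table in colour (blue for the knockdown comparison, orange for the knockout comparison and green for the mix). The 16 regions in the knockdown comparison run from KLK5 to beyond KLK14 with a gap of 31.0 kb, and 3 of the 4 regions in the knockout comparison stand directly under one of them.

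The regions shared by both single comparisons were at KLK5, beside KLK11 and in KLK13. The KLK5 region (chr19:51446001-51447000) holds the coding and untranslated end of exon 6, 9294 bp downstream of the start site, and 3 of its 17 CpGs were readable. The region listed in all 3 tables beside KLK11 (chr19:51525001-51526000) holds exon 6 of KLK11, its last, and lies 1570 bp upstream of a start site of KLK10. Of its 20 CpGs, 6 were readable, and all 6 lay outside KLK11, in a fragment 189 bp beyond the end of the gene. Of the 2 read ends of that fragment, 1 had a single match in the converted genome. The other region in all 3 tables (chr19:51561001-51562000) holds coding exon 4 of KLK13, and 2 of its 7 CpGs were readable, 1 in that exon and 1 in the intron beside it, both in a fragment of 43 bp. None of the 3 holds a start site of a kallikrein.

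Start sites were looked at next. For KLK5, a trypsin-like protease of the outer skin, the region with the start site and exon 1 (chr19:51456001-51457000, 4 of 16 CpGs readable) was listed in the knockdown comparison and in the mix. All 4 readable CpGs lay upstream of that start site and outside exon 1, and 1 of them lay within the span of KLK5. For KLK6, a trypsin-like protease of brain and epithelia that has been studied as a blood marker of ovarian cancer, the start site region (chr19:51472001-51473000, 15 of 26 CpGs readable) was listed in the knockdown comparison. So was its upstream neighbour (chr19:51473001-51474000), 154 bp from the start site. The next region downstream (chr19:51471001-51472000), with exons 2 and 3 and an alternative start site, was listed only in the knockout comparison. Of its 2 readable CpGs, 1 lay in the untranslated part of exon 2 and 1 in an intron. The 3 regions are neighbours, yet each was listed by 1 table only.

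For KLK10, also called normal epithelial cell-specific 1, the region with the start site and exons 1 and 2 (chr19:51522001-51523000) was listed in the knockdown comparison and in the mix. It had 37 readable CpGs of 77, 30 of them in introns and more than in any other readable region of the interval, and all of its 13 read ends had a single match in the converted genome. For KLK12, a trypsin-like protease, the start site region (chr19:51538001-51539000, 3 of 16 CpGs readable) and the region 743 bp upstream (chr19:51539001-51540000, 3 of 26) were listed in the knockdown comparison only. In the upstream region, 1 of 2 read ends had a single match in the converted genome. The other end, with 2 of the 3 readable CpGs, had 62 matches. For KLK14, a trypsin-like protease of the skin that can activate other kallikreins, a region 499 bp upstream of a start site (chr19:51588001-51589000, 3 of 19 CpGs readable) was listed in the knockdown comparison.

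Other start sites were readable and not listed. The start site region of KLK7, a chymotrypsin-like protease of the skin, had 18 readable CpGs of 45, and that of KLK13 had 25 of 49. The start site region of KLK8 (neuropsin, a protease of brain and skin) had 9 readable CpGs of 27 and that of KLK11 had 2 of 30. Those of KLK9 and of the MANE Select transcript of KLK14 held no readable CpG. MANE Select is the reference transcript agreed between the main annotations. Over the 10 genes, 8 MANE start site regions were readable and 4 of these were listed, all 4 in the knockdown comparison, 2 in the mix and 0 in the knockout comparison. Over the 14260 readable regions of the genome that hold a MANE start site, these shares were 15.8% in any table, 13.6% in the knockdown comparison, 6.05% in the mix and 3.21% in the knockout comparison.

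Within 2 kb of any of their start sites, 9 of the 10 genes had a readable region, KLK9 being the exception. Of these 9, the knockdown comparison listed a region for 6 (KLK5, KLK6, KLK8, KLK10, KLK12 and KLK14), and over 18079 protein-coding genes with a readable region this share was 33.5%. The knockout comparison listed one for 2 of 9 (KLK6 and KLK10), with 15.7% of all such genes, and the mix for 2 of 9 (KLK5 and KLK10), with 16.9%. Any table did so for 6 of 9, with 40.5% of all such genes. Both single comparisons did so for 2 of 9, with 9.41% of all such genes, through different regions for KLK6 and through the region beside KLK11 for KLK10. These counts describe 9 genes that partly share regions, and no test was made on them.

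**Figure D3:**
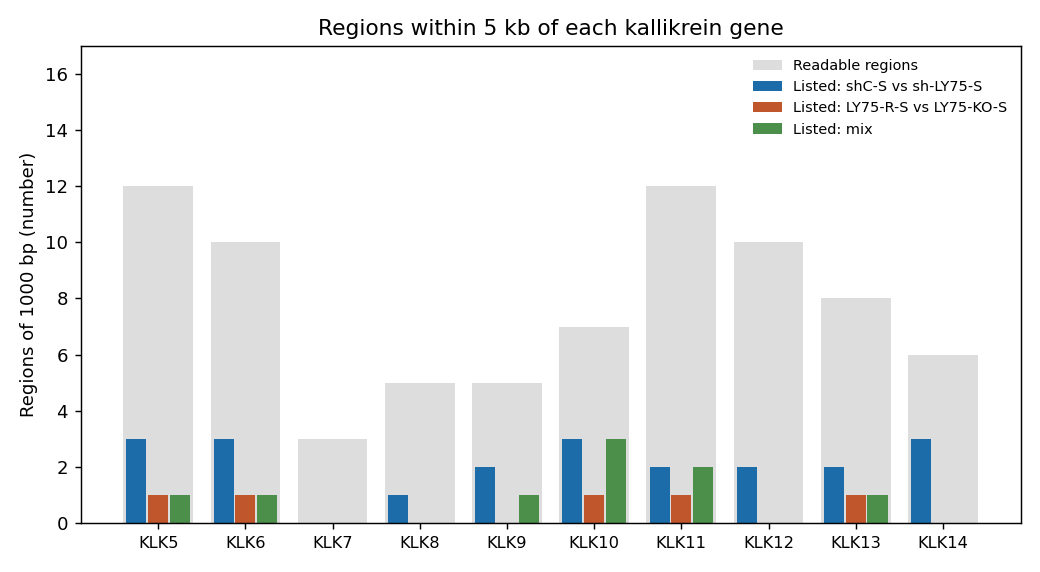
Number of 1000 bp regions (vertical axis) within 5 kb of each of the 10 genes, with readable regions as wide grey bars and listed regions of the 3 tables as narrow bars (blue for the knockdown comparison, orange for the knockout comparison and green for the mix). KLK5 and KLK11 have 12 readable regions each, KLK7 has 3 and no listed one, and no gene has more than 3 listed regions in any table. A region within 5 kb of 2 genes is drawn for both.

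Inside the genes and at their ends, the listed regions were spread over introns and exons. In KLK5 an intron region (chr19:51449001-51450000, 8 of 12 CpGs readable) was listed in the knockdown comparison, but only 2 of its 5 read ends had a single match in the converted genome. KLK8 and KLK9 shared 1 listed region (chr19:51505001-51506000, 7 of 28 CpGs readable), which holds the untranslated part of exon 5 of KLK9, its last, and an alternative start site of KLK8, and was listed in the knockdown comparison. All 7 readable CpGs lay in the span of KLK8 and none in that of KLK9. A region at the 3′ end of KLK10 (chr19:51515001-51516000) was listed in the knockdown comparison and in the mix, of which 6 bp lie in exon 6, the last of the gene, and 994 bp lie beyond it. This was the region with 0 readable CpGs by the digest, and it had 1 when fragments of 20 to 400 bp were allowed.

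KLK13, an epithelial protease, had a listed region over coding exon 5 (chr19:51559001-51560000, 5 of 9 CpGs readable) in the knockdown comparison, beside the exon 4 region given above. KLK14 had listed regions at its 3′ end (chr19:51580001-51581000, 3 of 23 readable) and over coding exons 4 and 5 (chr19:51582001-51583000, 12 of 24 readable), both in the knockdown comparison only. Of the 12 readable CpGs over these exons, 11 lay in coding exon 4 and 1 in an intron, and none lay in exon 5. Around KLK7 and most of KLK8 a stretch of 31.0 kb (chr19:51474001-51505000) held 0 listed regions, and 6 of its regions were readable. Of the 17 listed regions, 6 also overlap an annotated gene without a kallikrein symbol, and those cannot be assigned to a kallikrein alone.

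By position, 6 of 13 readable regions that hold a start site were listed in at least 1 table, 5 of 17 with coding exon and no start site, 1 of 10 within introns and 4 of 13 outside the MANE transcripts. The only readable region of untranslated exon without a start site was not listed. Over the genome, with start sites of protein-coding genes, the shares of these classes were 17.3%, 18.3%, 14.9% and 18.9%, and 18.5% for untranslated exon. Within 2 kb of a start site 10 of 30 readable regions (33.3%) were listed, and farther away 6 of 24 (25%), with 19% and 17.2% over the genome. Listed regions lay both near and far from start sites, and no test was made between the classes.

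**Figure D4:**
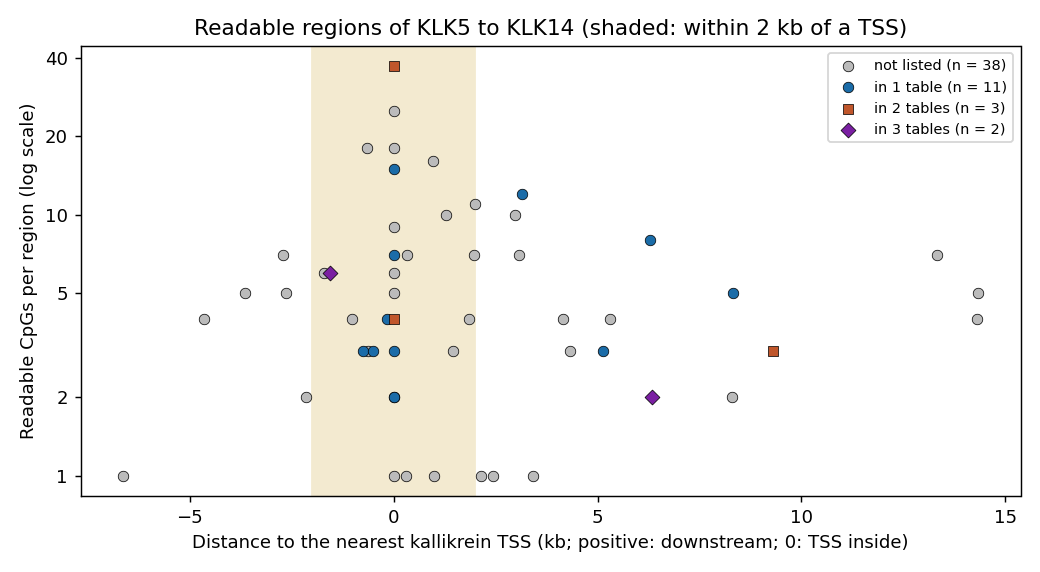
Readable CpGs per region (vertical axis, log scale) against the distance to the nearest kallikrein start site in kb (positive values are downstream, 0 holds a start site) for the 54 readable regions, by the number of tables that listed them. The 2 regions in 3 tables had 6 and 2 readable CpGs and hold no start site, and the region with the most readable CpGs, 37, is that of KLK10.

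Listed and unlisted regions had a similar number of CpGs that reads could reach. The median was 4 readable CpGs in the 16 listed regions (range 2 to 37) and 4.5 in the 38 unlisted ones (range 1 to 25), with a median of 5 over the genome. In the knockdown comparison, 1 of 12 regions with 1 or 2 readable CpGs was listed, 8 of 21 with 3 to 5 (38.1%), 3 of 13 with 6 to 10 (23.1%) and 3 of 8 with 11 or more (37.5%). Over the genome the shares in these classes were 11.9%, 11.2%, 11.9% and 16.3%. Whether reads could be placed was also looked at. All 16 listed regions had at least 1 read end with a single match in the converted genome, and so had 29 of the 38 unlisted ones. The other 9 may not have been measurable at all, and the share listed in the knockdown comparison was 15 of 45 (33.3%) without them. This check was added after the listed regions had been seen, and the genome-wide share was not recomputed in the same way.

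RefSeq promoter sequences (GRCh38.p14, 250 bases before to 50 after a start) were matched for 9 of the 10 genes, with 16 promoters. They held a median of 10 CpGs (range 2 to 23), and all 35116 promoters held a median of 14. The MspI site CCGG, which reads the same on both strands, was present in 12 of the 16 (75%) and in 63.1% of all promoters. The promoters without it were 1 of KLK11 and 3 of KLK14, and this says only that these letters are not in that window.

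Other genes of kallikrein biology came from a list of 24 inhibitors, substrates or receptors and steroid hormone receptors, of which 18 had a readable region within 2 kb of a start site. Any table listed such a region for 13 of the 18 (72.2%), the knockdown comparison for 12 (66.7%), the knockout comparison for 3 (16.7%) and the mix for 3 (16.7%). Over all protein-coding genes the shares were 40.5%, 33.5%, 15.7% and 16.9%. By role, the 13 were 3 of 6 inhibitors, 6 of 7 substrates or receptors and 4 of 5 steroid hormone receptors. The list was chosen with earlier results of these data known, so its shares cannot be read as an excess over all genes. No test was made on them. PLAUR, the receptor of urokinase, had a region (chr19:44172001-44173000) in both single comparisons, 1305 bp from a start site.

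The nearest listed regions outside the interval were 10559 bp beyond the KLK5 end (chr19:51435001-51436000, mix) and 30499 bp beyond the KLK14 end (chr19:51618001-51619000, the knockout comparison and mix). No region was listed between the interval and these positions.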

How the data were processed

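RRBS libraries of 4 SKOV3 clones were made with MspI and read as single reads of 50 bp. Per the labels and the submitters' processing notes, the authors trimmed reads with Trim Galore 0.4.1, aligned them to hg19 with Bismark 0.16.1 and compared clones with methylKit in windows of 1000 bp, keeping differences above 25 percentage points that passed an adjusted p-value. The extraction protocol names Trimmomatic in place of Trim Galore. The threshold on the adjusted p-value differs between the paper's methods and the labels of the deposited data, and its value is not given here. The methylKit version and the coverage minimum are not given in the sources used here.

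The deposited tables hold the position of each kept region and, as the authors' own comparisons, a p-value, a q-value and a difference in percent methylation. Only positions were used. Depth, methylation per library and replicate error are therefore unknown, and no test was made. RRBS reads carry no molecular identifiers, so copies of 1 molecule may have been counted in the authors' thresholds, and intervals given here cover counting error over regions only.

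Regions were matched to GENCODE release 44 lifted to GRCh37 (basic transcripts, MANE Select exons). MspI fragments and the genome-wide matches of read ends (exact, both strands, C read as T) were computed from GRCh37 with Python 3.11.15, numpy 2.4.6, pandas 2.3.3 and scipy 1.17.1, and the digest was tested on simulated sequence. Named were all 10 genes with every listed region within 5 kb, and of the pathway list the genes listed in both single comparisons, of which some results are not reported here. The members and lists were chosen with earlier results of these data known. Alternatives were other extensions, distances, transcripts, fragment sizes and CpG minimums.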

Additional observations from a re-analysis of the deposited data

How the results depend on the processing

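Of 49 recomputed values for 13 results, 46 stayed within 1.5 times the reported count or within the interval of the reported share. The alternatives reuse largely the same regions and the intervals are wide. Staying within these limits was therefore likely beforehand and says little about robustness. The values outside the limits were counts of few genes or regions. With 1 kb in place of 2 kb around start sites, the knockout comparison listed a region for 1 gene of the cluster instead of 2, since the region beside KLK11 lies 1570 bp from KLK10. With 5 kb, the mix listed a region for 4 genes instead of 2. With no extension of the genes, the rest of the kallikrein cluster held 5 listed regions instead of 8. The share of readable regions listed in the knockdown comparison lay between 22.7% (10 kb on each side) and 33.3% (at least 3 readable CpGs). The latter gave 4.76% in the knockout comparison. Over the genome, regions with 3 to 5, 6 to 10 and 11 or more readable CpGs stood at 6.88%, 6.4% and 4.89% in the knockout comparison. In the knockdown comparison they stood at 11.2%, 11.9% and 16.3%. Genome-wide shares under the other settings are not given here. Counting only readable regions with a uniquely matched read end, an alternative chosen after seeing the data, gave 33.3%, 8.89% and 8.89% in the 3 tables. Leaving out a replicate was not possible with 1 library per clone. No paired analysis was possible because the clones have no replicates and no result comes from a test.

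Depth limits every statement: the tables do not give it, so an unlisted region cannot be read as unchanged.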
